A study of Mus musculus with 15 samples.

Results

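The genes described here encode the subunits of voltage-gated sodium, calcium and potassium channels, of the other potassium channels and of the ClC chloride channels. They were taken as every symbol of the count table that starts with Kcn, Cacn or Clcn, or with Scn and a digit, with 1 gene left out. This gave 81 of the 13602 symbols in the table. The tissue was gastrocnemius, the large calf muscle, from 7 male mice lacking Cpt1b in skeletal muscle and from 8 male mice labelled as wild type and floxed. Cpt1b is the muscle enzyme that commits long-chain fatty acids to entry into the mitochondrion. The series text gives chow for 12 to 14 weeks in both groups, whereas the diet field reads 45% HFD for all 15 samples. The labels name neither the promoter that drives the Cre recombinase nor the deleted exons.

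A muscle fibre fires when sodium channels open along its surface membrane and down the transverse tubules. Potassium and chloride channels then return the membrane to rest, and in skeletal muscle the resting chloride conductance is unusually large. Calcium channel subunits in the tubules sense the voltage and trigger calcium release from the sarcoplasmic reticulum. Silent subunits of the voltage-gated potassium (Kv) family form no channel by themselves and alter the channels of pore-forming partners.

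Most channel genes of the muscle fibre were not called different in knockout muscle. The exceptions were 4 genes, which ranked 11, 16, 28 and 35 among the 81 by mean level (Clcn2, Kcng4, Kcnq5 and Kcnv2). Kcnv2 and Clcn2 rose, while Kcng4 and Kcnq5 fell. Kcnv2 and Kcng4 are both silent Kv subunits, and they moved in opposite directions. Of the 81 genes, 49 had enough tags to be tested, and a gene was called when its edgeR adjusted p over all 11062 genes tested was under 0.05. The 2 genes called higher compare with 1.67% of all genes tested, and the 2 called lower with 0.497%. Together the 4 made up 8.16% of the tested channel genes, against 2.17% of all genes. The set was chosen with earlier results of these data known, so these shares do not test channel genes as a set.

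SAGE counts 1 short sequence tag from close to the end of each transcript, so levels are given in CPM (tag counts scaled to the same library total) and do not scale with transcript length. The totals ran from 9390065 to 19397255 tags in the knockout libraries and from 8334436 to 16238258 in the control libraries. Knockout replicate 4 and control replicate 7 stood farthest to 1 side on the leading principal component, which held 44.6% of the variance of log2 CPM. Cpt1b itself was at 1.096 to 6.46 CPM in knockout muscle (median 3.83) and at 4.44 to 13.1 CPM in control muscle (median 6.51). The difference was -1.03 ± 0.31 on the log2 scale (SE after ±, as for all log2 values). Its edgeR p was 0.00351 unadjusted and 0.103 after adjustment over all genes tested. An exact two-sided permutation p over 6435 splits, which was not adjusted, was 0.00389. A tag may lie outside the deleted part of the gene, and then it does not check the genotype. The 10 genes listed as a check of the tissue, among them skeletal actin, fast myosins and myoglobin, summed to 45755 to 79495 CPM in knockout muscle and to 51799 to 67952 CPM in control muscle. Among them myoglobin (Mb) rose (log2 0.71 ± 0.17, edgeR adjusted p = 0.0376) and Tnnt3, the fast troponin T, fell (log2 -0.65 ± 0.13, edgeR adjusted p = 0.00629).

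The tags of Kcnv2 and Kcng4 are shown because the results turn on these counts. Each is the 27 bases predicted from the GENCODE M21 transcript, starting at the last CATG before the 3' end, which is the usual anchoring site of SAGE and is set in capitals. The labels do not name the enzyme. The Kcnv2 tag lies on the plus strand at chr19:27337136-27337162 and the Kcng4 tag on the minus strand at chr8:119623923-119623949 (GRCm38), both in the 3' untranslated region.
Kcnv2: CATGttatgtattaaataaaaattggt
Kcng4: CATGatgctttgctccaggaataggct
All 81 genes had at least 1 such predicted tag, 297 in total, and none of these was predicted for another annotated gene.

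Kcnv2 (Kv8.2), the silent subunit best known from photoreceptors, showed the largest change among the channel genes tested. The gene spans chromosome 19 from 27322588 to 27337179 (GRCm38, plus strand). Knockout libraries held 2.82 to 5.89 CPM of Kcnv2, with a median of 5.23, whereas control libraries held 0.373 to 1.06 CPM, with a median of 0.631. The groups did not overlap, with all 7 knockout libraries above all 8 controls. The counts behind these levels were 35 to 74 tags per knockout library and 3 to 13 tags per control library, so the control level rests on few tags. Mean Kcnv2 was 4.80 ± 1.17 CPM in knockouts and 0.720 ± 0.267 CPM in controls (SD, n = 7 and n = 8), a 6.54-fold difference (log2 2.71 ± 0.24 SE, edgeR adjusted p = 1.26e-06). Its nearest tested neighbours were not called. They were the lipoprotein receptor gene Vldlr, 68.4 kb away (log2 -0.14 ± 0.16), and D19Bwg1357e, 51.5 kb away (log2 0.23 ± 0.16).

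Kcng4 (Kv6.4), the other silent subunit that was called, fell in knockout muscle. It lies on chromosome 8 from 119623854 to 119635680 (GRCm38, minus strand). Knockout libraries held 10.8 to 25.3 CPM of Kcng4, with a median of 15.8, and control libraries held 36.6 to 60.5 CPM, with a median of 46.6. Again the groups did not overlap, here with all 7 knockout libraries below all 8 controls. The means were 17.7 ± 5.31 CPM in knockouts and 47.3 ± 8.83 CPM in controls (SD, n = 7 and n = 8), a log2 fold change of -1.42 ± 0.18 (SE, edgeR adjusted p = 0.000109). The genes on either side, Taf1c at 18.6 kb (log2 -0.21 ± 0.17) and Wfdc1 at 30.7 kb (log2 -0.21 ± 0.31), were not called. Kcnv2 and Kcng4 were the 2 channel genes whose libraries did not overlap between groups, as was the case for 1.19% of all genes tested.

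**Figure D1:**
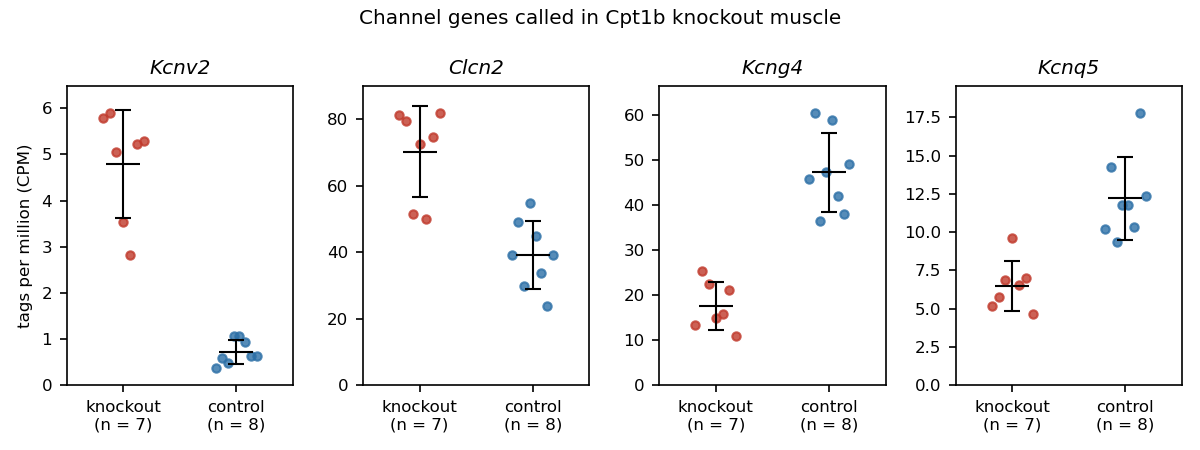
Level of the 4 called channel genes in each library, in CPM, with Cpt1b knockout left of control. Points are libraries and bars are mean ± SD (n = 7 and n = 8). The groups are apart for Kcnv2 and Kcng4 and share a small range for Clcn2 and Kcnq5.

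Clcn2, a widely expressed chloride channel that opens on hyperpolarisation, rose in knockout muscle. It lies on chromosome 16 from 20702964 to 20717746 (GRCm38, minus strand). Knockout libraries held 49.9 to 81.9 CPM of Clcn2, with a median of 74.6, and control libraries held 23.7 to 54.8 CPM, with a median of 39.2. Knockout replicates 3 and 5, at 51.6 and 49.9 CPM, were the knockout libraries inside the control range. The means were 70.2 ± 13.7 CPM in knockouts and 39.3 ± 10.2 CPM in controls (SD, n = 7 and n = 8), a 1.79-fold difference (log2 0.84 ± 0.17 SE, edgeR adjusted p = 0.0113). The gene overlaps Fam131a and Polr2h on the opposite strand. None of the 6 predicted tags of Clcn2 was shared with another gene. The counting rule is not given in the sources used here, so tags assigned by position may still not be told apart. Fam131a (log2 -0.05 ± 0.17) and Polr2h (log2 0.33 ± 0.23) were not called.

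Kcnq5 (Kv7.5), a pore subunit of slow, non-inactivating potassium currents, fell in knockout muscle. It spans chromosome 1 from 21398403 to 21961942 (GRCm38, minus strand). Knockout libraries held 4.62 to 9.62 CPM of Kcnq5, with a median of 6.53, and control libraries held 9.36 to 17.8 CPM, with a median of 11.8. Knockout replicate 4 and control replicate 7 were each the highest of their group. Mean Kcnq5 was 6.502 ± 1.64 CPM in knockouts and 12.2 ± 2.71 CPM in controls (SD, n = 7 and n = 8), a log2 fold change of -0.91 ± 0.17 (SE, edgeR adjusted p = 0.00637). The annotation places Gm36949, Gm38243 and the processed pseudogene Gm7658 inside it on the same strand. The non-coding RNA gene Gm26580 overlaps it on the opposite strand. None of the 4 predicted tags of Kcnq5 was shared with another gene, but tags of these genes assigned by position may not be told apart from those of Kcnq5.

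All 4 calls held when the libraries that stood apart, knockout replicate 4 and control replicate 7, were both left out. The log2 fold change was then 2.73 for Kcnv2, 0.74 for Clcn2, -1.44 for Kcng4 and -0.94 for Kcnq5. In that fit 3.67% of all genes were called. Each of the 4 was also called with any single library left out, in fits that called 1.44% to 4.25% of all genes. They were called as well with RLE scaling (2.09% of all genes), with library size alone (2.09%), with voom (2.11%) and without the filter on low counts (1.79%). With the replicate number as a block, Kcnv2 and Kcng4 were called and Clcn2 and Kcnq5 were not, although the numbers did not pair the libraries. That fit called 1.06% of all genes and left out control replicate 8, which had no knockout library of the same number.

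The promoters of Kcng4, which fell, and Clcn2, which rose, are shown because each had a single entry in the RefSeq promoter table (GRCm38.p6). Each entry runs from 250 bases before the transcript start to 50 bases after it, 5' to 3' on the minus strand, at chr8:119635631-119635930 for Kcng4 and chr16:20716587-20716886 for Clcn2. The Clcn2 window lies wholly inside the GENCODE span of the gene given above, which ends at 20717746. Bases upstream of that end were not searched.
Kcng4: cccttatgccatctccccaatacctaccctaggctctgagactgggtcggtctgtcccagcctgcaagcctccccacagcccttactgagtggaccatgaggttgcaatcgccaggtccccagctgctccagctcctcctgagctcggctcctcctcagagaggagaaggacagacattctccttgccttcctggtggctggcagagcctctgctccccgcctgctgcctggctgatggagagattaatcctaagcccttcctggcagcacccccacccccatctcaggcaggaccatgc
Clcn2: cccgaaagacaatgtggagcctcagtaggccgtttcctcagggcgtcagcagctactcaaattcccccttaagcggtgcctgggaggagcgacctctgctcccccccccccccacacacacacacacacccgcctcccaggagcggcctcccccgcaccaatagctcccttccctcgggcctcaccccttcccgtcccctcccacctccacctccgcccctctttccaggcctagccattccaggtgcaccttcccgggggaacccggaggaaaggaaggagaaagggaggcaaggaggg
They were searched on both strands, together with the pair of Kcnq5 entries, for the nuclear receptor half-site AGGTCA, for its direct repeat with 1 base of any kind between the copies, for the longer half-site TNAAGGTCA (N is any base) and for a core of the MEF2 site, CTA and TAG with 4 bases of any kind between them. The first motif is contained in the next 2. No match was found in these 4 windows, which belong to 3 of the 4 called genes, so no base is in capitals. Kcnv2 was not searched. Among all 32851 promoters of the table, 16.3% held AGGTCA, 0.0396% held the direct repeat, 1.28% held TNAAGGTCA and 3.69% held the MEF2 core. Of the 81 channel genes, 60 had an entry.

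No other silent subunit was called. Kcnf1 (Kv5.1) stood at 15.9 to 73.9 CPM in knockout muscle and 17.3 to 62.0 CPM in control muscle (log2 -0.15 ± 0.32, edgeR adjusted p = 0.836). Kcns1 and Kcns3 had too few tags to be tested. Summed over the 5 silent subunits, the median level was 53.1 CPM in knockout muscle and 85.3 CPM in control muscle, with overlapping ranges.

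**Figure D2:**
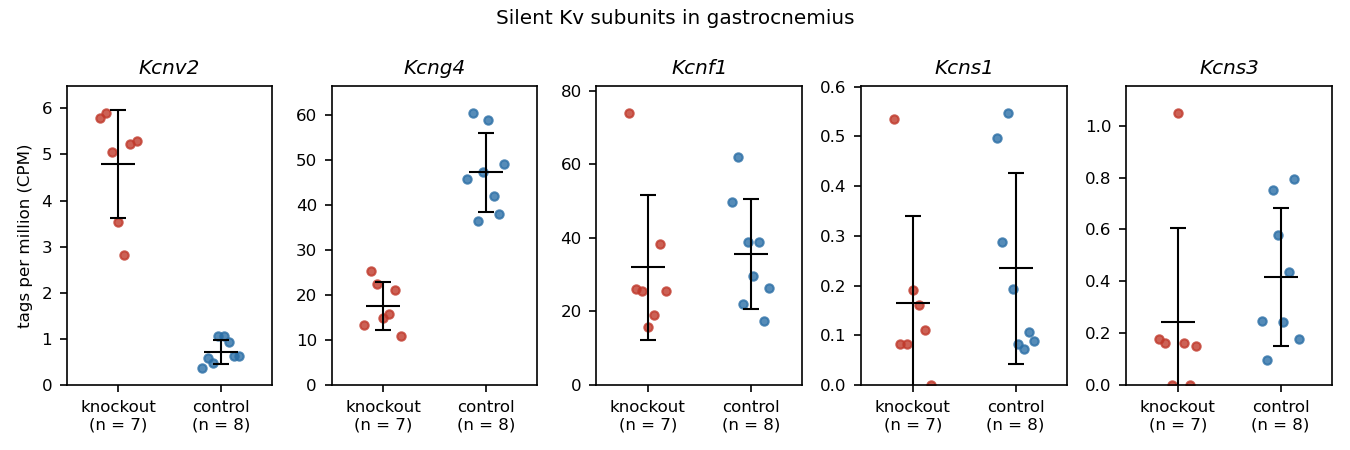
Level of the 5 silent Kv subunits in each library, in CPM, with Cpt1b knockout left of control. Points are libraries and bars are mean ± SD (n = 7 and n = 8), and each panel has its own scale. Kcnv2 and Kcng4 separate the groups in opposite directions, and the other panels overlap.

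Sodium channel genes showed no call in 6 tested. Scn4a (Nav1.4), the pore of the adult muscle sodium channel, stood at 44.3 to 168.1 CPM in knockouts, with a median of 142.0, and at 77.1 to 177.6 CPM in controls, with a median of 133.5. The lowest library of each group was the one that stood apart, knockout replicate 4 and control replicate 7. The log2 difference was -0.06 ± 0.24 (SE, edgeR adjusted p = 0.926), and its sign was positive, at 0.09, without knockout replicate 4. Scn4b, a beta subunit that modulates these pores, stood at 62.9 to 128.1 CPM in knockouts and 60.1 to 104.7 CPM in controls (log2 0.25 ± 0.17, edgeR adjusted p = 0.545).

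Among the 5 chloride channel genes tested Clcn2 was the 1 called. Clcn1, the muscle ClC-1 channel that carries most of the resting chloride conductance, held 13.3 to 27.2 CPM in knockouts, with a median of 25.1, and 22.2 to 40.2 CPM in controls, with a median of 31.5. The ranges overlapped, and a log2 difference of -0.40 ± 0.16 was not called (edgeR adjusted p = 0.278, unadjusted p = 0.0227). By tags, mean Clcn2 was 70.2 ± 13.7 CPM and mean Clcn1 23.3 ± 4.73 CPM in knockout muscle, against 39.3 ± 10.2 CPM and 30.8 ± 6.02 CPM in control muscle (SD, n = 7 and n = 8). The endosomal and lysosomal ClC proteins Clcn3 (log2 -0.10 ± 0.16), Clcn4-2 (log2 -0.19 ± 0.16) and Clcn7 (log2 -0.10 ± 0.13) were not called. Without control replicate 7, the highest Clcn3 library, the Clcn3 difference was 0.04.

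Auxiliary calcium channel subunits were among the most abundant channel transcripts and were not called. Cacnb1, the beta subunit that excitation-contraction coupling requires, stood at 198.8 to 369.0 CPM in knockouts and 297.0 to 487.9 CPM in controls (log2 -0.20 ± 0.15, edgeR adjusted p = 0.578). Cacng1, the muscle gamma subunit, stood at 198.4 to 362.8 CPM in knockouts and 205.1 to 474.9 CPM in controls (log2 -0.35 ± 0.18, edgeR adjusted p = 0.392). For Cacnb1 and Cacng1 alike, knockout replicate 4 was the lowest knockout library. Cacna2d1, the alpha2-delta subunit, had a log2 difference of 0.01 ± 0.15, whose sign changed with RLE scaling, under which it was -0.0029.

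The 4 calcium channel pore genes of this set that were tested were rare and not called. The set leaves 1 gene out, so these levels do not describe all calcium channel pores of the muscle. Cacna1c (Cav1.2), the pore of heart and smooth muscle, was the most abundant of these at a mean of 5.70 CPM over all libraries (log2 -0.11 ± 0.17). Cacna1g (Cav3.1), a T-type channel that opens at low voltage, held 1.05 to 4.12 CPM in knockouts and 2.07 to 5.96 CPM in controls. Its log2 difference of -0.89 ± 0.29 did not pass (edgeR adjusted p = 0.142), but it did without knockout replicate 6 (log2 -1.11, edgeR adjusted p = 0.0405, where 2.26% of all genes were called) and without control replicate 7 (log2 -0.996, edgeR adjusted p = 0.0469, where 4.25% were called). Cacna1a, the P/Q-type pore of motor nerve endings, had a log2 difference of 0.66 ± 0.25 (edgeR adjusted p = 0.254).

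Inward rectifier potassium channels, which hold the resting potential, gave no call in 6 genes tested. Kcnj12 (Kir2.2) stood at 141.4 to 187.0 CPM in knockouts and 140.9 to 224.6 CPM in controls (log2 -0.22 ± 0.12, edgeR adjusted p = 0.422), and Kcnj2 (Kir2.1) had a log2 difference of 0.21 ± 0.16. Kcnj11 (Kir6.2) forms the pore of the ATP-sensitive potassium channel, which couples membrane potential to energy state. It held 43.8 to 63.8 CPM in knockouts, with a median of 46.4, and 46.7 to 99.6 CPM in controls, with a median of 63.7. The ranges overlapped and the log2 difference of -0.41 ± 0.18 did not pass (edgeR adjusted p = 0.332, unadjusted p = 0.0369). Abcc9, a sulphonylurea receptor that joins this pore, had a log2 difference of 0.25 ± 0.23.

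No other potassium channel gene was called. Kcna7 (Kv1.7), the most abundant Kv pore gene on average, held 12.2 to 48.1 CPM in knockouts and 33.4 to 51.5 CPM in controls (log2 -0.14 ± 0.21), and without knockout replicate 4, its lowest library, the log2 difference was 0.01. Kcnc4 (Kv3.4), a fast-inactivating channel, held 12.4 to 54.4 CPM in knockouts and 4.72 to 73.3 CPM in controls (log2 0.47 ± 0.50). Its highest libraries were again knockout replicate 4 and control replicate 7. Without both of these the Kcnc4 log2 difference was 0.82 ± 0.43 (edgeR adjusted p = 0.301). Without single libraries it ran from 0.27 to 1.03 and was not called. Kcnc1 (Kv3.1) had a log2 difference of 0.23 ± 0.24 and Kcnma1, the large-conductance calcium-activated channel, one of -0.18 ± 0.21. The most abundant genes of the auxiliary and two-pore groups were Kcne4 (log2 0.03 ± 0.19) and Kcnk2 (log2 0.17 ± 0.28), and neither was called. Kcnq1ot1, which the symbol rule includes, is a non-coding RNA and no channel subunit (log2 -0.10 ± 0.12).

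**Figure D3:**
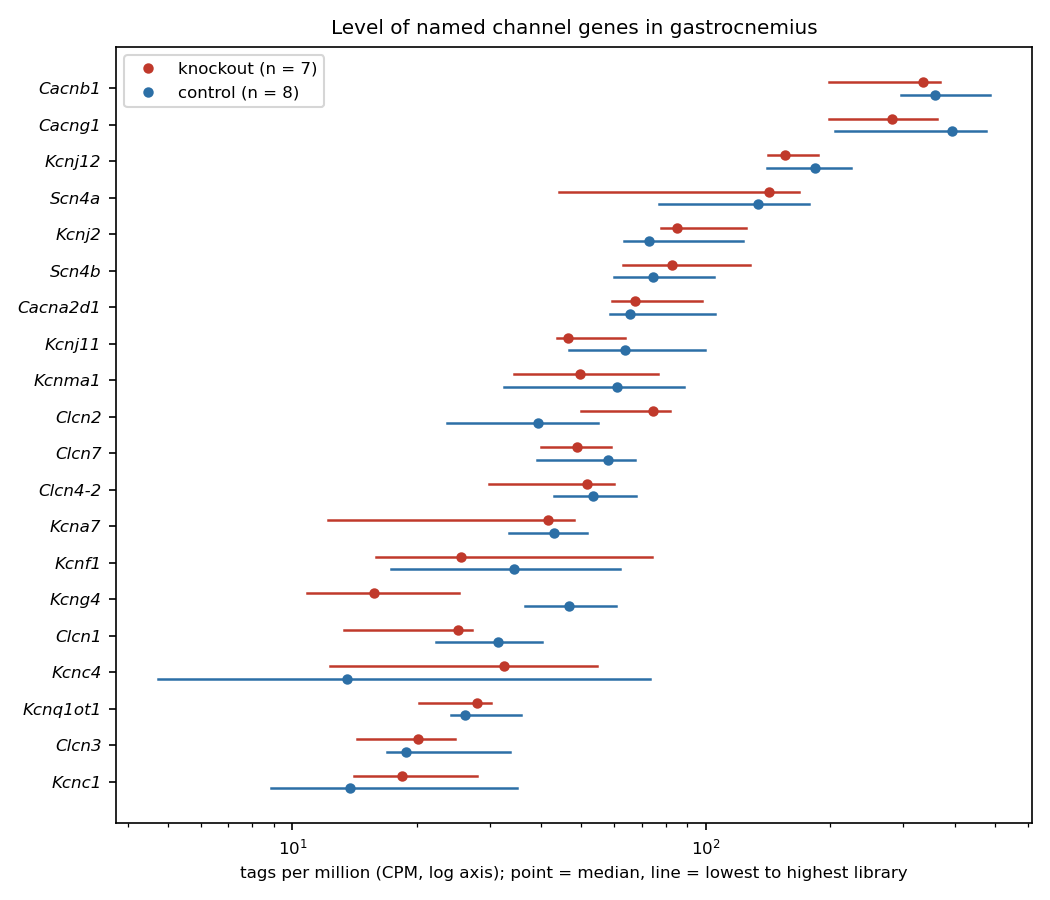
The 20 channel genes named in the text that had a mean of at least 10 CPM, ordered by mean level. Points are medians and lines run from the lowest to the highest library, for Cpt1b knockout (n = 7, upper) and control (n = 8, lower), on a log axis of CPM. Kcng4 is the 1 gene whose lines do not overlap.

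**Figure D4:**
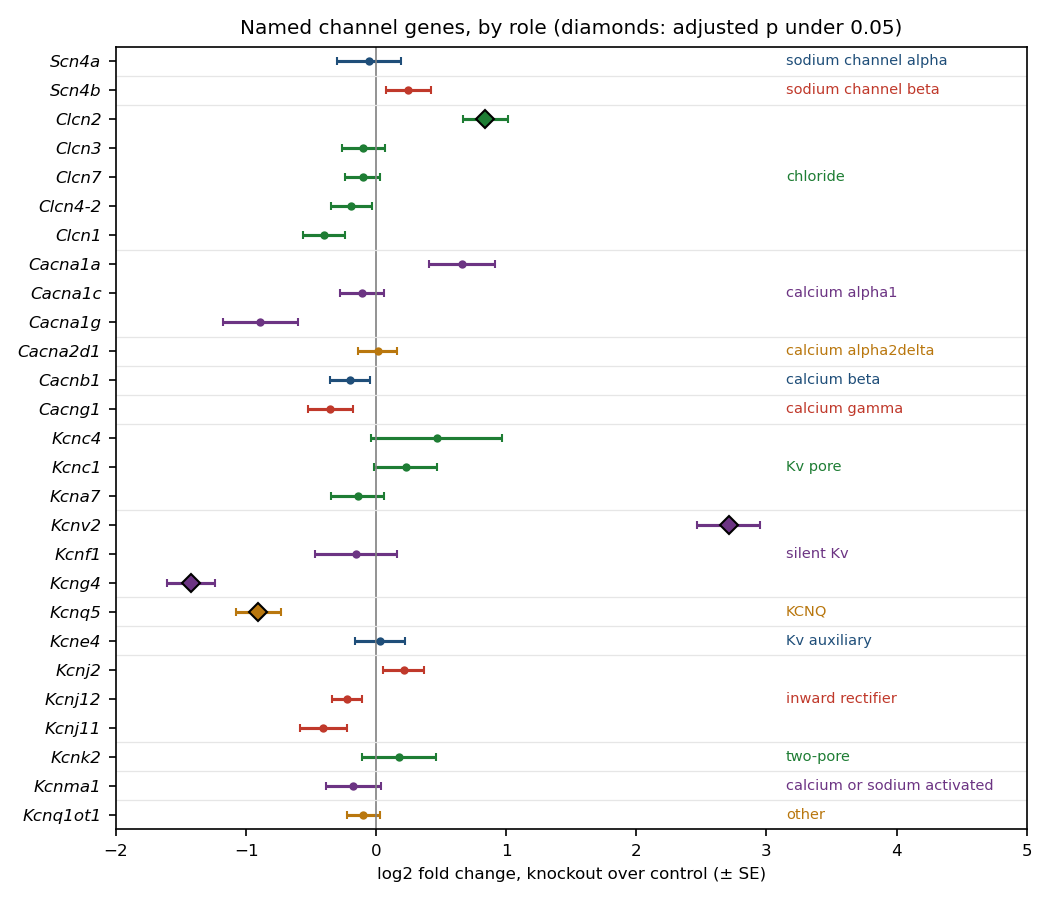
Log2 fold change, knockout over control, with SE for 27 of the 49 channel genes tested, those named in the text, grouped by role. Diamonds mark the 4 genes called (Kcnv2, Clcn2, Kcng4 and Kcnq5), which lie in the silent Kv, chloride and KCNQ groups.

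Over the tested channel genes, 23 fold changes were positive and 26 negative, and 41 were smaller than 0.5 in size on the log2 scale. Their median was -0.06, against 0.005 over all 11062 genes, and their median size was 0.19, against 0.20. An unadjusted edgeR p under 0.05 was found for 8 of the 49 (16.3%), close to the 13.6% of all genes. The summed level of the 80 genes other than Kcnq1ot1 was 1809 to 2374 CPM in knockouts and 2106 to 2594 CPM in controls, and the median was 2235 CPM in knockouts and 2451 CPM in controls.

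**Figure D5:**
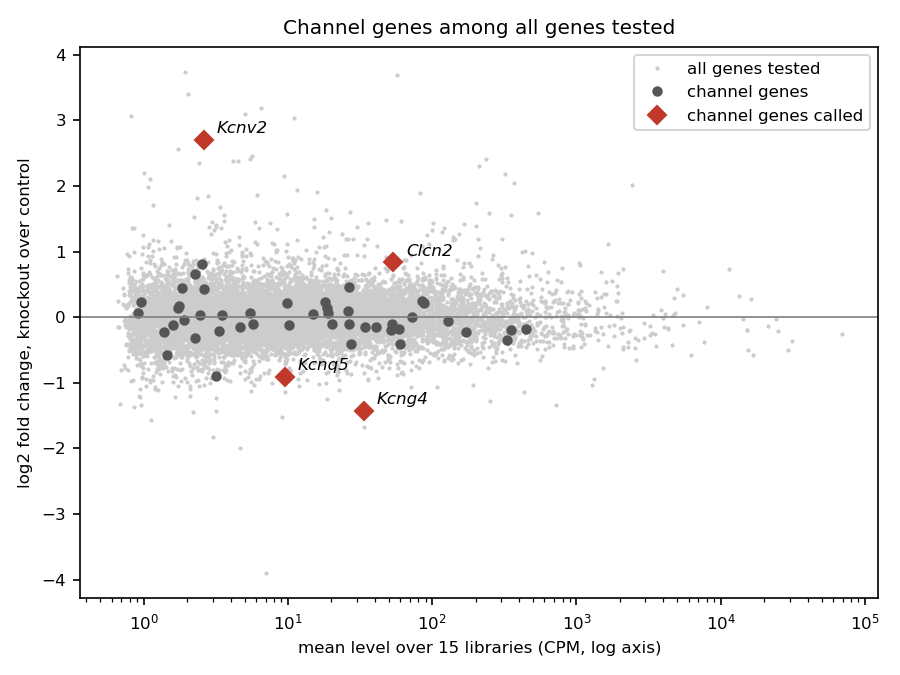
Log2 fold change, knockout over control, against mean level over the 15 libraries (log axis) for all 11062 genes tested (grey), the channel genes (dark points) and the 4 called ones (diamonds). Kcnv2 and Clcn2 lie above 0 and Kcng4 and Kcnq5 below it.

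The other 32 channel genes were removed by the filter on low counts, and their mean levels ran from 0.189 to 0.804 CPM. They include Kcnh2, Kcne3, which partners Kcnc4 in muscle, and Kcnn3, a calcium-activated channel that appears in denervated muscle (0.0757 to 0.623 CPM in knockouts and 0 to 0.497 CPM in controls). Without the filter none of the 32 was called by edgeR, and 2 had an unadjusted p under 0.05. These were Cacna1i, a T-type pore (log2 -1.84 ± 0.54), and Cacna2d4 (log2 -2.21 ± 0.66), both singled out after their values were seen. DESeq2, which tested 80 of the channel genes, called Cacna2d4 lower (log2 -2.34 ± 0.71, DESeq2 adjusted p = 0.0321) beside the same 4 genes, where it called 3.41% of all genes it tested. Cacna2d4 had 9 tags over all knockout libraries and 48 over all control libraries, and 3 libraries held none, so that call rests on few tags.

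Genes that work with these channels were also counted, and the counts in this and the lists that follow stand against 1.67% of all genes tested called higher and 0.497% called lower. Of 10 tested genes of the sodium-potassium pump list 1 rose, namely Atp1b4, which in placental mammals encodes a muscle nuclear membrane protein and not a pump subunit. It held 3.22 to 5.73 CPM in knockouts and 0.621 to 2.03 CPM in controls, with no overlap (log2 1.85 ± 0.23, edgeR adjusted p = 9.73e-05). None of 22 channel partners and regulators and none of 21 other ion channel genes was called, with medians of -0.07 and -0.05.

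Of 17 tested genes of denervation and the neuromuscular junction 2 rose and none fell (median 0.15), where 1.67% of all genes were called higher. Chrna1, the alpha subunit of the muscle acetylcholine receptor, held 88.6 to 174.5 CPM in knockouts and 63.9 to 95.6 CPM in controls (log2 0.73 ± 0.16, edgeR adjusted p = 0.0145). Dach2, a transcriptional cofactor, held 5.13 to 14.0 CPM in knockouts and 2.22 to 6.10 CPM in controls (log2 1.45 ± 0.25, edgeR adjusted p = 0.00271). In both genes the group ranges overlapped slightly. Uncalled genes of the list went both ways, among them Lrp4 (log2 0.76 ± 0.28), Runx1 (log2 0.12 ± 0.20) and Musk (log2 -0.53 ± 0.29). The list was not sorted by the direction in which denervation moves each gene, so its counts and median give no direction of response.

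Fibre type and other cell types were examined beside these results, against the same 1.67% of all genes called higher and 0.497% called lower, and their part in the channel results was not tested. Of 9 tested slow-fibre genes 2 rose and none fell (median 0.68), namely the calcium pump Atp2a2 (log2 0.84 ± 0.17) and the calcium store protein Casq2 (log2 0.80 ± 0.19). The uncalled slow-fibre genes ran from Myl3 (log2 0.06 ± 0.23) to Myl2 (log2 0.82 ± 0.28), with the slow myosin Myh7 at 0.16 ± 0.32. All genes of the slow-fibre list summed to 2801 to 4756 CPM in knockouts and 1664 to 4211 CPM in controls. Most of that sum was Myl3 (mean 2106 CPM in knockouts and 2018 CPM in controls). Of 13 fast-fibre genes 1 fell, the Tnnt3 named above, and none was called higher (median -0.21). The fast myosins Myh2 (log2 0.79 ± 0.34) and Myh1 (log2 0.64 ± 0.33) had positive differences that were not called. All other genes of that list had negative ones, among them the fast myosin Myh4 (log2 -0.21 ± 0.13). Fewer cells of a type and less RNA per cell cannot be told apart in whole muscle. Fibroblast markers, 9 of 9 tested with 1 lower (Gsn, log2 -0.54 ± 0.13), summed to 1443 to 3309 CPM in knockouts and 2422 to 4117 CPM in controls. The largest part of that sum was Col1a1 (mean 815.4 CPM in knockouts and 1670 CPM in controls), which was not called (log2 -1.03 ± 0.30, edgeR adjusted p = 0.0863). Most uncalled fibroblast markers had negative differences, but Lum (log2 0.16 ± 0.15) and Pdgfra (log2 0.03 ± 0.15) did not. Nerve and Schwann cell markers, 7 tested and none called, summed to 52.5 to 151.3 CPM in knockouts and 58.5 to 149.8 CPM in controls. Smooth muscle and pericyte markers, 8 tested and none called, summed to 354.0 to 558.3 CPM in knockouts and 336.3 to 637.8 CPM in controls. Endothelial markers, 9 tested and none called, summed to 206.4 to 303.0 CPM in knockouts and 213.8 to 334.8 CPM in controls. Of 8 adipocyte markers 1 fell, the leptin gene Lep (log2 -1.83 ± 0.43), and none rose (median 0.05). The uncalled markers went both ways, from Plin1 (log2 -0.39 ± 0.35) to Cidec (log2 0.82 ± 0.50), with Adipoq at 0.005 ± 0.32. The list summed to 645.3 to 2289 CPM in knockouts and 733.6 to 1370 CPM in controls. Most of that sum was Car3 (mean 843.3 CPM in knockouts and 793.8 CPM in controls). Macrophage markers, 7 tested and none called, summed to 45.6 to 78.3 CPM in knockouts and 51.7 to 104.9 CPM in controls. Erythroid markers, 3 tested and none called, summed to 12.1 to 56.2 CPM in knockouts and 15.8 to 91.0 CPM in controls. Lymphocyte markers, 1 tested and not called, summed to 1.77 to 4.89 CPM in knockouts and 2.69 to 4.14 CPM in controls.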

How the data were processed

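Per the labels' protocols, SOLiD SAGE libraries were prepared from 500 ng of RNA per sample. The authors deposited a table of raw counts, with 1 row for each gene symbol. Its 360 empty lines were dropped. A table of scaled values was not used. The submitters' processing notes list DESeq2 (version not given), mm10 and GRCm38.p1. The aligner and the counting rule are not given in the sources used here. Groups and replicate numbers came from the titles. The numbers of mice in the labels equal those of the libraries. No pair of libraries in a group agreed within sampling noise (chi-square per gene at least 14.6).

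The main test used R 4.3.3 and edgeR 4.0.16 (quasi-likelihood test, robust dispersion, TMM scaling, filterByExpr with a minimum count of 10, group as the only term, Benjamini-Hochberg adjustment over 11062 genes). CPM used the TMM-adjusted totals. The SE of each log2 fold change was derived from it and its F value. The fits were tested on simulated data. Alternatives were RLE scaling, library size alone, no filter, DESeq2 1.42.0, limma 3.58.1 voom, a replicate block and leaving libraries out. Positions came from GENCODE M21, in which 12291 symbols matched directly and 927 through a synonym.

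The genes, role groups and lists were chosen with earlier results of these data known. The text names every channel gene that was called or had an unadjusted p under 0.05, a list of genes known from adult muscle, the most abundant gene of each role group, and the nearest tested neighbours of called genes. Some genes under this rule are not reported here. Markers and partner genes followed 15 lists.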

Additional observations from a re-analysis of the deposited data

Results flagged for a closer look

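A library stood far from the others of its group in 6 of the 66 gene and group combinations examined, where chance sets apart about 1 in 20. Knockout replicate 4 was low for Cacnb1 (198.8 CPM, against 330.0 to 369.0 CPM in the other knockouts), for Kcna7 (12.2 CPM, against 37.7 to 48.1 CPM) and for Clcn1 (13.3 CPM, against 21.9 to 27.2 CPM). Kcnf1 was high in knockout replicate 1 (73.9 CPM, against 15.9 to 38.3 CPM in the other knockouts). Among controls, Kcnq1ot1 was high in replicate 6 (35.6 CPM, against 24.2 to 28.5 CPM) and Clcn3 in replicate 7 (33.7 CPM, against 16.96 to 21.8 CPM). None of the 4 called genes was among these.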

How the results depend on the processing

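The 2 genes called higher (Kcnv2, Clcn2) and the 2 called lower (Kcng4, Kcnq5) were called again with RLE scaling, library size alone, no low-count filter, DESeq2 and voom. Without single libraries the count called higher stayed at 2 and the count called lower ran from 2 to 3. Replicate numbers did not pair the libraries (3 of 7 same-numbered pairs had deviations correlated above 0.1, and 1 knockout library matched its own number best). The fit with the replicate number as a block left out control replicate 8. It called 1 gene higher and 1 lower, with 1.06% of all genes called. Clcn2 (log2 0.86, edgeR adjusted p = 0.0649) and Kcnq5 (log2 -0.91, edgeR adjusted p = 0.0792) were not called in it. Cpt1b passed with DESeq2 (log2 -1.03, adjusted p = 0.0309), without knockout replicate 4 and control replicate 7 together (-0.94, adjusted p = 0.0432) and without control replicate 7 alone, and without single libraries it ran from -1.20 to -0.86. Sign changes were found for uncalled genes near 0. Cacna2d1 was at -0.0029 with RLE scaling and -0.0089 with the block, Scn4a at 0.0053 with library size alone and 0.0011 without that pair, and Kcne4 at -0.0171 with the block and -0.11 without the pair. Without single libraries the ranges were -0.0764 to 0.11 for Cacna2d1, -0.14 to 0.0945 for Scn4a, -0.0713 to 0.11 for Kcne4, -0.51 to 0.0068 for Kcnf1, -0.21 to 0.0146 for Kcna7 and -0.17 to 0.0414 for Clcn3. The cause was not tested. With plain library totals the mean levels of named genes moved by less than 1 SD. Depth limits Kcnv2 in controls (3 to 13 tags per library) and the 32 genes left untested.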
